A study of Mus musculus with 71 samples.

Results

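The embryos compared here differ in 1 microRNA family, miR-19, in a setting where the cluster's other 3 families are missing from both sides. The comparison takes 5 of the series' 71 RNA-seq libraries, chosen by genotype and tissue as the sample titles give them. The full knockout (labelled Full-KO, 3 libraries) lacks the whole miR-17~92 cluster. The other group (labelled Delta_17_18_92, here Δ17,18,92, 2 libraries) keeps miR-19a and miR-19b-1 but has lost miR-92a-1, miR-18a, miR-20a and miR-17. So both groups lack the miR-17, miR-18 and miR-92 families at this locus, and the full knockout lacks miR-19 as well. All were C57BL/6 mouse embryos at E9.5 with 20 to 22 somites, and the tissue was what remained of the embryo after the heart and the tail bud had been dissected away. The series holds 8 genotypes at this locus in 3 tissues. A second pair of genotypes from the same tissue served as a comparison: Δ19 (labelled Delta_19, lacking miR-19a and miR-19b-1 alone, 3 libraries) against wild type (3 libraries), which shares no library with the 5.

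A microRNA guides the silencing machinery to messenger RNAs, mostly through pairing of its seed, bases 2 to 8 from the 5′ end, with a site in the 3′ untranslated region (3′UTR), which lowers the messenger's stability and translation. The cluster miR-17~92 is cut from 1 primary transcript, its members fall into families by seed, and it is needed for normal growth of the heart, lung, skeleton and B cells. The miR-19 family is regarded as the main oncogenic part of the cluster in lymphoma.

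The mature sequences from RefSeq (GRCm38.p6) are shown first because the seed, in capitals, is what a site has to match. The members of the miR-19 family share 1 seed and differ from each other by U11C (miR-19a base first, counted from the 5′ end). The chromosome X gene Mir19b-2 encodes the same mature miR-19b and lies outside the deleted cluster, so neither group is labelled as free of every miR-19 gene.

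miR-19a-3p: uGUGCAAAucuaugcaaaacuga

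miR-19b-3p: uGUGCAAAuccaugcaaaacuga

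miR-17-5p: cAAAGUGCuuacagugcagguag

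miR-18a-5p: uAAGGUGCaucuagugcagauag

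miR-92a-3p: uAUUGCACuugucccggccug

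An 8-base match to miR-19 is TTTGCACA in the messenger strand (the complement of the seed followed by A), and a 7-base match is TTTGCAC without that A. Of the genes that rose most clearly, the following sites show the match in capitals within 30 bases of 3′UTR, on GRCm38. They are the genes that the results below turn on.

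Suz12 (chr11:80033802-80033809, plus strand): gaaggctagcattgTTTGCACAaaaaattg

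Kpna6 (chr4:129647437-129647444, minus strand): atttaattttttctTTTGCACAtttttctt

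Rnf11, site nearer the stop codon (chr4:109453761-109453768, minus strand): tagttttaagcttgTTTGCACAgttctttt

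Rnf11, second site (chr4:109453128-109453135, minus strand): caaatgtgttatgtTTTGCACAccaatgca

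Acadm (chr3:153922483-153922490, minus strand): tatatttgctttgtTTTGCACAaaagagta

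Reep3 (chr10:67013187-67013194, minus strand): ctttcctggctagtTTTGCACActtgaaaa

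Impdh1 (chr6:29200502-29200509, minus strand): ttgaaggctttaacTTTGCACActttgggg

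Mylip (chr13:45411824-45411831, plus strand): tatgcatttgtttcTTTGCACAgacatttt

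The libraries were of like depth, 19521777 to 22853209 counts for 4 of the 5 and 23955585 for Δ17,18,92 replicate 2. Replicates differed by more than counting noise in each pair (chi-square per degree of freedom 3.15 to 4.46), and the biological coefficient of variation over the 23 libraries of this tissue was 6.47%. The series text calls replicates biological, and the labels do not tie a library to an embryo or litter. The genes of the 6 deleted hairpins were listed at 0 in all 23 libraries, so they check no label. By Xist and Y-linked genes the 5 libraries were alike, while Δ19 and wild type each mixed libraries of high and low Xist. Levels are CPM (counts scaled to the library total with TMM factors) and differences are log2 fold changes ± SE of the full knockout over Δ17,18,92 from edgeR's quasi-likelihood test, called at an adjusted p under 0.05. In tissue RNA, fewer cells of a type and less RNA per cell cannot be told apart.

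With miR-19 lost, 171 genes rose and 141 fell out of 17512 tested, so that 0.976% were called higher, 0.805% lower and 1.78% in either direction. Without Δ17,18,92 replicate 2, which carried the most heart muscle RNA of the 5, 41 rose and 11 fell, and 29 of the 41 held the 8-base miR-19 match; without any other 1 library 67 to 165 rose. The genes that rose moved little, with a median of 0.25 on the log2 scale, and many carried the miR-19 match. Those that fell moved further (median size 0.508) and seldom carried the 8-base match. Among the 171 that rose, 73 (42.7%) held an 8-base match, 14 (8.19%) a 7-base match only, and 80 neither, and 4 had no annotated 3′UTR. Among the 141 that fell, 4 (2.84%) held an 8-base match, against 4.79% of all tested genes. A 7-base match only was held by 11 of the 141 (7.8%), against 5.92% of all tested genes. With either match counted, the shares were 50.9% of those that rose, 10.6% of those that fell and 10.7% of all tested genes. Of the 12 genes with the smallest p among those that rose, 10 held an 8-base match, and of the first 40, 28 did (70%). The 2 of the 12 without one were Uhmk1, a kinase of splicing factors (0.59 ± 0.04, edgeR adjusted p = 1.46e-10), and the zinc-finger gene Zfp568 (0.43 ± 0.05, 1.45e-06), which holds a 7-base match. They were named after their values were seen.

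Suz12, a core subunit of the polycomb repressive complex PRC2, which methylates histone H3 at lysine residues of silenced genes, had the smallest p. It stood at 248, 247 and 249 CPM in the 3 full knockout libraries and at 155 and 157 CPM in the 2 Δ17,18,92 libraries. The groups did not overlap, as held for 15.9% of all tested genes with the full knockout above and 14.4% with it below. The rise came to 0.67 ± 0.04 (1.59-fold, edgeR adjusted p = 7.89e-14). Across the other genotypes Suz12 was at 154 to 161 CPM wherever miR-19 was present, including wild type (161 ± 3.68, SD, n = 3). Only Δ19 reached the height of the full knockout, at 260 ± 7.90 CPM (SD, n = 3).

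Kpna6, an importin alpha that carries proteins into the nucleus, stood at 232, 228 and 230 CPM against 145 and 156 CPM. Its rise was 0.61 ± 0.04 (edgeR adjusted p = 1.17e-10), and the groups did not overlap, as in all 171 genes called higher. In Δ19 over wild type it rose by less, 0.36 ± 0.04, and the difference between these effects (0.25 ± 0.06) did not pass the test over all genes (adjusted p = 0.131). Δ17 and Δ18 held it at 149 ± 3.66 and 162 ± 2.34 CPM (SD, n = 3), above wild type at 131 ± 2.32.

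Rnf11, a RING-finger ubiquitin ligase, has both of the sites shown above. Its levels were 69.8, 72.0 and 74.3 CPM without miR-19 and 37.8 and 41.6 CPM with it. The rise of 0.86 ± 0.07 (edgeR adjusted p = 1.28e-09) was the largest among genes with an 8-base match that were named. Lonrf1, a RING-finger protein with a LON domain and also 2 matches, rose by 0.82 ± 0.10 (adjusted p = 2.33e-06), from 18.9 and 21.8 CPM to 33.0, 39.1 and 35.9 CPM.

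Several of the risers are enzymes. Acadm, the medium-chain acyl-CoA dehydrogenase of fatty acid oxidation, stood at 47.5, 46.9 and 48.6 CPM in the full knockout and 27.9 and 27.5 CPM in Δ17,18,92. This was a rise of 0.78 ± 0.08 (edgeR adjusted p = 4.95e-08), in groups far apart. Impdh1, which makes the first step from inosine to guanine nucleotides, stood at 81.8, 76.1 and 82.3 against 54.4 and 55.1 CPM and rose by 0.55 ± 0.06 (1.96e-07). Adss, which commits inosine monophosphate to adenine nucleotides, rose by 0.40 ± 0.04 (6.82e-07).

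Other named risers with an 8-base match have varied roles. Reep3, which clears endoplasmic reticulum from chromosomes in mitosis, stood at 79.9, 80.4 and 80.9 CPM against 54.4 and 52.6 CPM, a rise of 0.59 ± 0.05 (edgeR adjusted p = 1.79e-08). Its level in wild type was lower than in Δ17,18,92 (43.4 ± 2.74 CPM, SD, n = 3), and both other genotypes without miR-17 and miR-20a but with miR-19, Δ17 and Δ17,18, stood at 52.7 CPM. Asna1, which delivers tail-anchored proteins to the endoplasmic reticulum, rose by 0.42 ± 0.05, and Tor1b, a torsin ATPase of that compartment, by 0.42 ± 0.05. Nrbp1, an adaptor with a kinase-like domain, rose by 0.39 ± 0.05, and Ccm2, a scaffold that keeps endothelial junctions in order, by 0.49 ± 0.06. The small GTPase gene Rhebl1 (0.66 ± 0.10), Fam83g (0.68 ± 0.13) and the semaphorin receptor gene Plxnc1 (0.60 ± 0.13) rose too, each with an 8-base match, and the last 2 of these calls were lost when single libraries were left out.

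**Figure D1:**
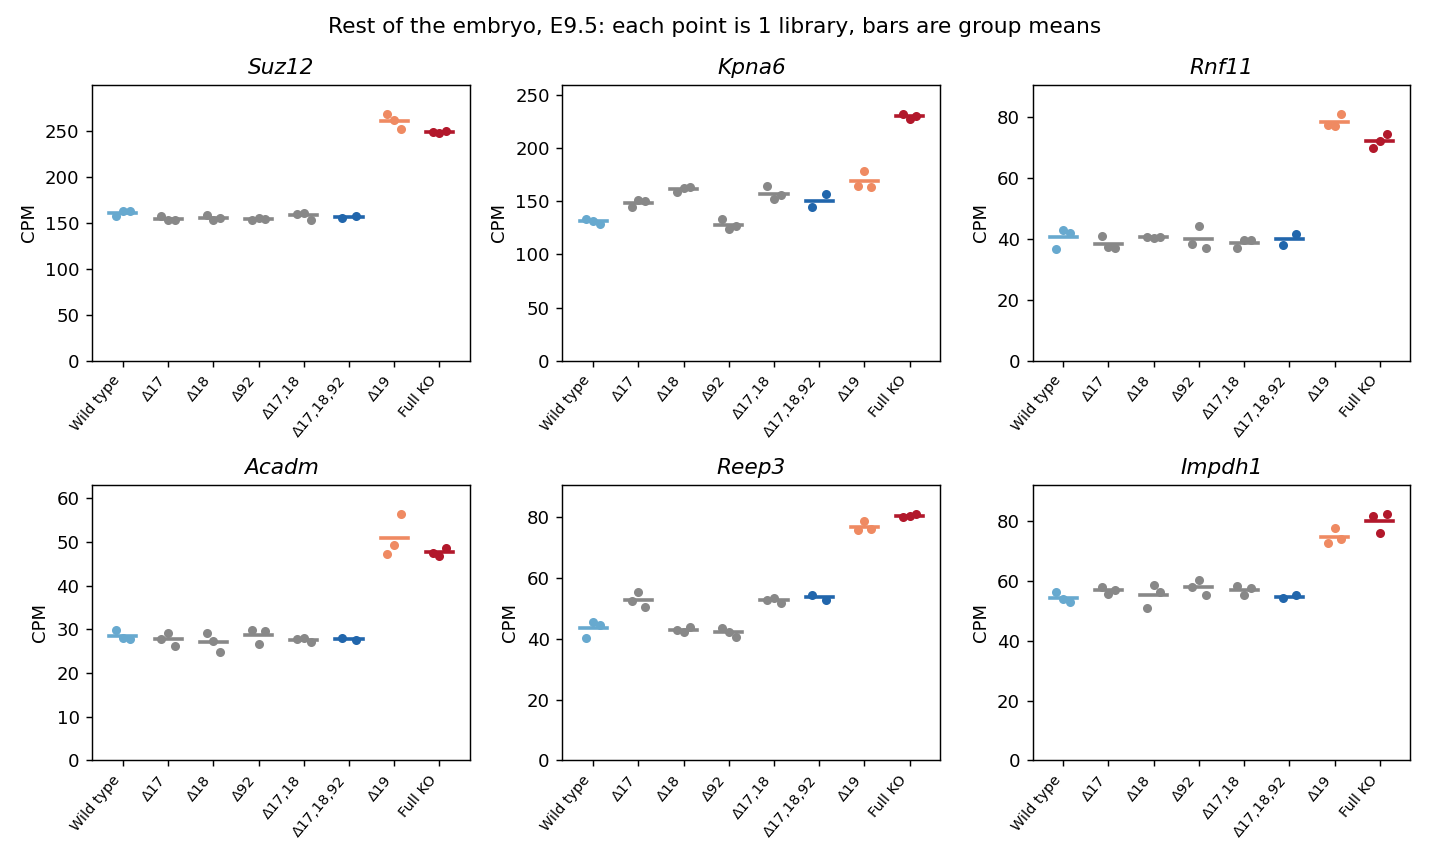
Level in CPM (vertical axes, from 0) of 6 genes with a miR-19 match in each rest-of-embryo library of the 8 genotypes (horizontal axes); points are libraries and bars are group means. In Suz12, Rnf11 and Acadm the 2 genotypes without miR-19 stand alone, with Suz12 at 247 to 249 CPM in the full knockout and 155 and 157 CPM in Δ17,18,92, while Kpna6 and Reep3 also differ among genotypes that keep miR-19.

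The targets best known for miR-19 gave a mixed picture. In a list of 17 reported targets, 12 of which hold an 8-base match, 5 rose, 0 fell and the median was 0.12, against 0.0007 over all tested genes. Beside the 5 of 17, the share of all tested genes that rose was 0.976%. Mylip, a ubiquitin ligase of lipid metabolism, rose by 0.59 ± 0.09 (edgeR adjusted p = 0.000168), from 20.5 and 18.0 CPM to 27.6, 29.0 and 30.2 CPM. Socs3, an inhibitor of cytokine signalling, rose by 0.49 ± 0.10 (adjusted p = 0.00738). The proto-oncogene Mycn, mutated in Feingold syndrome, rose by 0.46 ± 0.10 (adjusted p = 0.0326), and Ccnd1, cyclin D1, by 0.19 ± 0.05 (adjusted p = 0.0284). In Δ19 over wild type 1 of the 17 rose, Mylip (0.44). Socs3 gave 0.25 there, Mycn 0.32 and Ccnd1 −0.05, none past the test. Ccnd1 averaged 390 CPM in the full knockout and 342 CPM in Δ17,18,92. It reached 379 CPM in Δ17 and 394 CPM in Δ17,18, which keep miR-19. Bcl2l11, the pro-apoptotic BIM that the cluster is known to hold down, holds a 7-base match here and gave 0.18 ± 0.06 (adjusted p = 0.0887). Mycn was named after its value was seen.

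Other pathway lists had few calls. None of the 14 BCL2 family genes passed by edgeR or DESeq2 (5 at an unadjusted p under 0.05), with a median of 0.156 and Bid, a BH3-only protein, at 0.38 ± 0.11 (adjusted p = 0.0677). In the list of lipoprotein uptake and cholesterol synthesis, Mylip alone of 17 tested genes passed, and the median was −0.0356. The cell cycle list had 1 riser of 24 by edgeR (Ccnd1), 7 at an unadjusted p under 0.05 and 3 risers by DESeq2 (Ccnd1, Mcm2 and Mcm6), with a median of 0.032. By edgeR, TGF-β and BMP signalling had 0 of 28, p53 targets 0 of 12, and hypoxia and glycolysis 0 of 10. At an unadjusted p under 0.05 these held 5, 6 and 1, and DESeq2 called Tgfb2 lower and none of the others. The 15 reported targets of the other 3 families, which both groups lack, had a median of −0.0858, with 0 higher and 1 lower (Zbtb4, a zinc-finger repressor, −0.52 ± 0.13, adjusted p = 0.0328).

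Over all genes with an annotated 3′UTR, the match, its length and its number went with the size of the difference. The 839 tested genes with an 8-base miR-19 match had a median of 0.0419, 61.3% were above 0, and 73 rose (8.70%, against 0.976% of all tested genes). With 1 match the median was 0.0367 (776 genes, 7.99% called higher), and with 2 or more it was 0.0726 (63 genes, 17.5% called higher). The 1036 genes with a 7-base match only had a median of −0.00297 and 1.35% called higher. Genes with an 8-base match for a family that both groups lack had medians of −0.0241 for miR-17, 0.00435 for miR-18 and −0.0254 for miR-92. In that order 0.789%, 3.29% (8 of 243) and 1.52% were called higher, so the miR-18 share also lay above that of all tested genes. With a 7-base match only for these families, 1.69%, 1.58% and 1.02% were called higher. Where the 8-base miR-19 match came without a match of the other 3 families (469 genes), the median was 0.0444 and 9.81% rose.

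**Figure D2:**
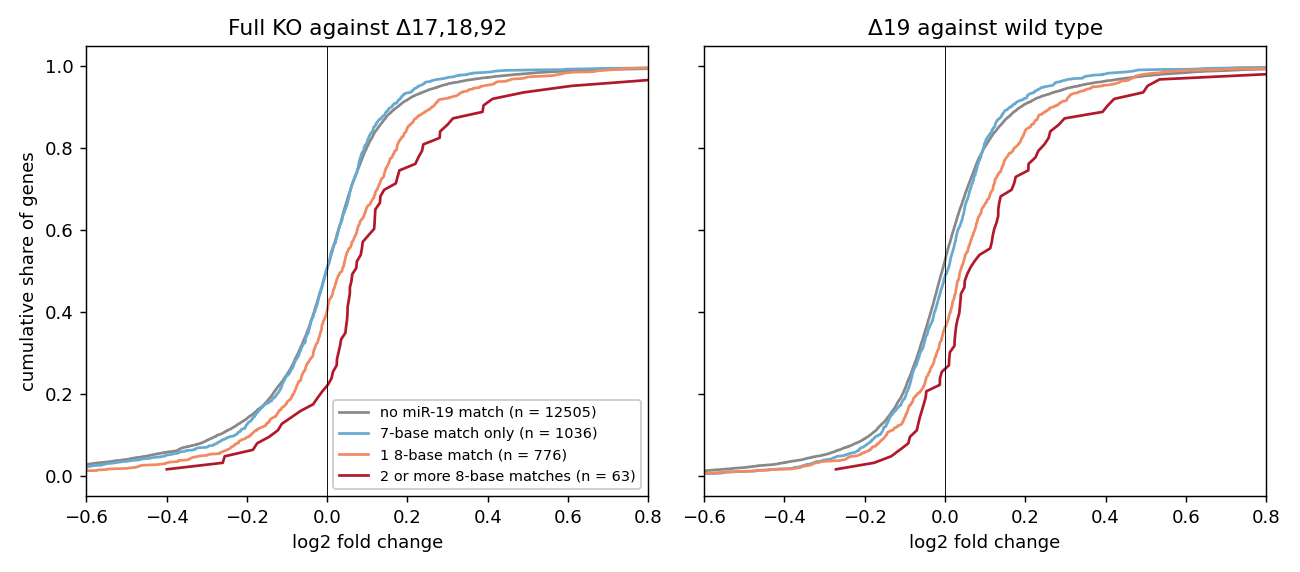
Cumulative share of tested genes (vertical axes) by log2 fold change (horizontal axes, shown from −0.6 to 0.8) for genes grouped by the miR-19 match in the 3′UTR, in the full knockout against Δ17,18,92 (left) and in Δ19 against wild type (right). The curve of 63 genes with 2 or more 8-base matches lies furthest to the right in both, and 7-base matches alone lie next to genes with none.

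The share of matched genes that rose was higher at higher levels. Among genes with an 8-base match and a mean log2 CPM over 6, 48 of 310 rose (15.5%), and between 4 and 6 it was 22 of 275 (8.0%). Below 2 it was 1 of 123 (0.813%). Genes with no miR-19 match at all gave 1.6% over 6 and 0.533% between 4 and 6. Among genes with exactly 1 match, the 62 that rose had a median 3′UTR of 1966 bases, and their match lay a median of 244 bases from the nearer end. The other 714 had a median 3′UTR of 2528.5 bases and a median distance of 511.5 bases. The 62 also stood at a higher level, with a median log2 CPM of 6.52 against 5.11. The part of level in the differences of length and distance was not tested. The share of A and T in the flanking bases was the same at the median in both (59.1%).

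Averaged within each library, genes with an 8-base match (mean log2 CPM, relative to genes holding none of the 4 families' matches) stood at 0.875, 0.862 and 0.875 in the full knockout and 0.806 and 0.796 in Δ17,18,92. The groups did not overlap, and the pooled spread within groups was 0.00746. Δ19 stood at 0.833, 0.822 and 0.798 and wild type at 0.744, 0.765 and 0.779. A like score for miR-92 matches was lower in the full knockout (0.857 to 0.871) than in Δ17,18,92 (0.877 and 0.892).

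When miR-19 was lost alone, from an otherwise intact cluster, a like number of genes moved. In Δ19 over wild type 329 genes changed (1.88%), of which 173 rose (0.988%) and 156 fell (0.891%). Of the risers, 66 rose in both comparisons, 38.6% of those in the full knockout and 38.2% of those in Δ19, and 48 of the 66 hold an 8-base match. The genes called higher in the full knockout had the same sign in Δ19 for 154 of 171, with a median of 0.144 there. Of the decreases, 13 fell in both, 9.22% and 8.33% of the respective lists. Among those 13 were AW551984 (−0.82 ± 0.13 and −0.75 ± 0.13), and Col6a1, a chain of collagen VI (−0.60 ± 0.10 and −0.42 ± 0.10). They also held Pcyt1a, which makes the precursor of phosphatidylcholine (−0.23 ± 0.05 and −0.28 ± 0.04), and Mfn2, a mitochondrial fusion GTPase (−0.16 ± 0.04 and −0.23 ± 0.04). These shared decreases were chosen after their values were seen.

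Tested gene by gene, the effect of losing miR-19 differed between the 2 settings in 1 gene of 17512 (0.00571%), with 1464 at an unadjusted p under 0.05 and 59 by DESeq2. That gene was Mir17hg, the host transcript of the cluster, whose reads cannot be placed relative to the deletions. It stood at 426, 434 and 463 CPM in the full knockout and 453 and 494 CPM in Δ17,18,92 (−0.10 ± 0.06, edgeR adjusted p = 0.458). In Δ19 it rose over wild type by 0.61 ± 0.05, and the difference of the effects was −0.71 ± 0.08 (adjusted p = 1.80e-05). Wild type and Δ19 had Mir17hg means of 158 and 241 CPM. Other genotypes that keep miR-19 differed too, with Δ18 at 162, Δ92 at 208, Δ17,18 at 292 and Δ17 at 302 CPM. Suz12, Rnf11, Acadm and Reep3 rose by 0.69, 0.95, 0.83 and 0.82 in Δ19.

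**Figure D3:**
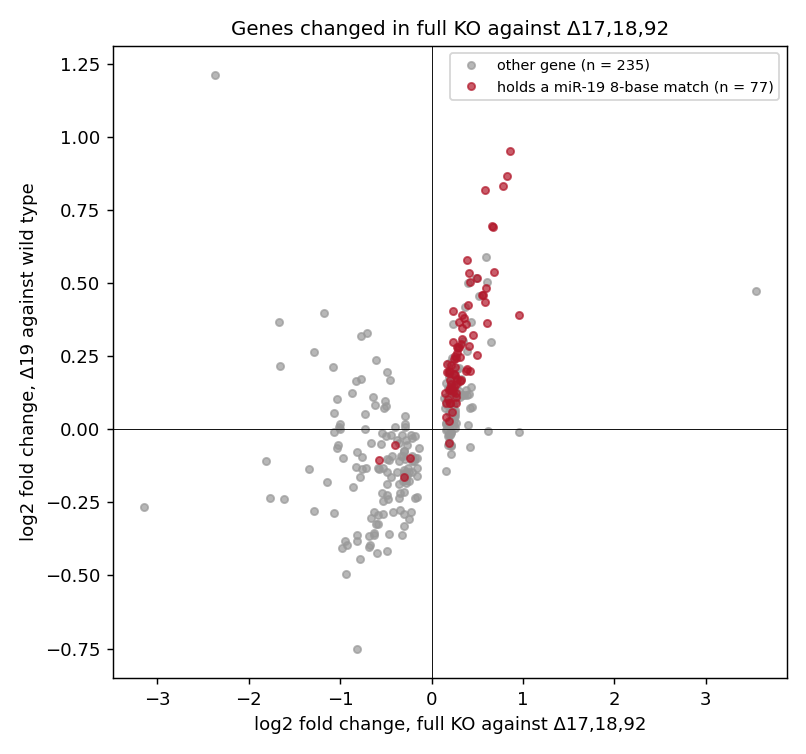
Log2 fold change of the 312 genes changed in the full knockout against Δ17,18,92 (horizontal axis) and the same genes' log2 fold change in Δ19 against wild type (vertical axis), 1 point per gene. The 77 with an 8-base miR-19 match lie mostly at upper right, while the genes that fell furthest on the horizontal axis spread around 0 on the vertical one.

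The genes that fell were led by heart muscle genes, although the heart had been taken out. Of the 141, 89 (63.1%) were over 2-fold higher in wild-type heart than in the wild-type rest of the embryo, against 7.96% of all tested genes and 3.51% of those that rose. Actn2, the alpha-actinin of the sarcomere's Z disc, stood at 9.31, 6.91 and 5.65 CPM in the full knockout and 12.7 and 19.6 CPM in Δ17,18,92 (−1.14 ± 0.19, edgeR adjusted p = 0.00264). Tnnt2, cardiac troponin T, stood at 24.4, 15.1 and 20.7 against 34.9 and 49.0 CPM (−1.06 ± 0.21, adjusted p = 0.0189). The groups did not overlap in either gene, as in 140 of the 141 that fell, and Δ17,18,92 replicate 2 was the highest in both. Mybpc3 (myosin-binding protein C, −1.03), Myl4 (an atrial myosin light chain, −1.02), Ldb3 (a Z-disc protein, −1.04), Ryr2 (the calcium release channel, −0.999) and Slc8a1 (the sodium-calcium exchanger, −0.97) fell too. Cnn1 (calponin, −1.07), Ankrd1 (a sarcomeric ankyrin-repeat protein) and Myo18b (−0.93) fell as well, and so did Ttn, the giant protein titin (−0.86 ± 0.20). Nppa, the atrial natriuretic peptide, fell by 3.15 ± 0.58 at levels of 0.05 to 0.28 CPM against 0.96 and 1.46 CPM.

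These decreases moved with the markers of cardiomyocytes as a whole. Of 9 such markers, 3 fell (Tnnt2, Nppa and Ttn), 0 rose, and all 9 were below 0, with a median of −1.04. By DESeq2 6 of the 9 fell. Their summed level was 423, 237 and 310 CPM in the full knockout and 512 and 744 CPM in Δ17,18,92, with no marker at 0 in the 5 libraries. Wild type stood at 317, 407 and 329 CPM, so both Δ17,18,92 libraries lay above all 3 wild-type libraries. Of the full knockout libraries, 1 lay above the wild-type ones and 2 below. Among the other genotypes Δ17 replicate 3 reached 538 CPM and Δ92 up to 488 CPM, so Δ17,18,92 replicate 1 lay within the range of other genotypes and replicate 2 above all of them. Without Δ17,18,92 replicate 2 the counts became 41 higher and 11 lower, and the 12 named decreases of the largest size were all lost as calls. With the cardiomyocyte level as a covariate they became 49 and 21, and Actn2 gave −0.36 (adjusted p = 0.502). That covariate was the mean log2 CPM of the same 9 markers, Tnnt2, Nppa and Ttn among them. The markers' summed level did not overlap between the groups, so fewer heart muscle calls followed in part from how the covariate was made. The 12 decreases named by size, at a mean log2 CPM not under 2, were also followed in Δ19 over wild type. They gave values there from −0.40 (Myo18b) to 0.12 (Dcn), none past the test, with 0.06 for Tnnt2 and −0.18 for Actn2. Of the 9 markers, 1 was called there, Myl2, a ventricular myosin light chain, which was higher (edgeR adjusted p = 0.0401) at very low levels. The part of heart cells in these differences was not tested beyond these values.

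**Figure D4:**
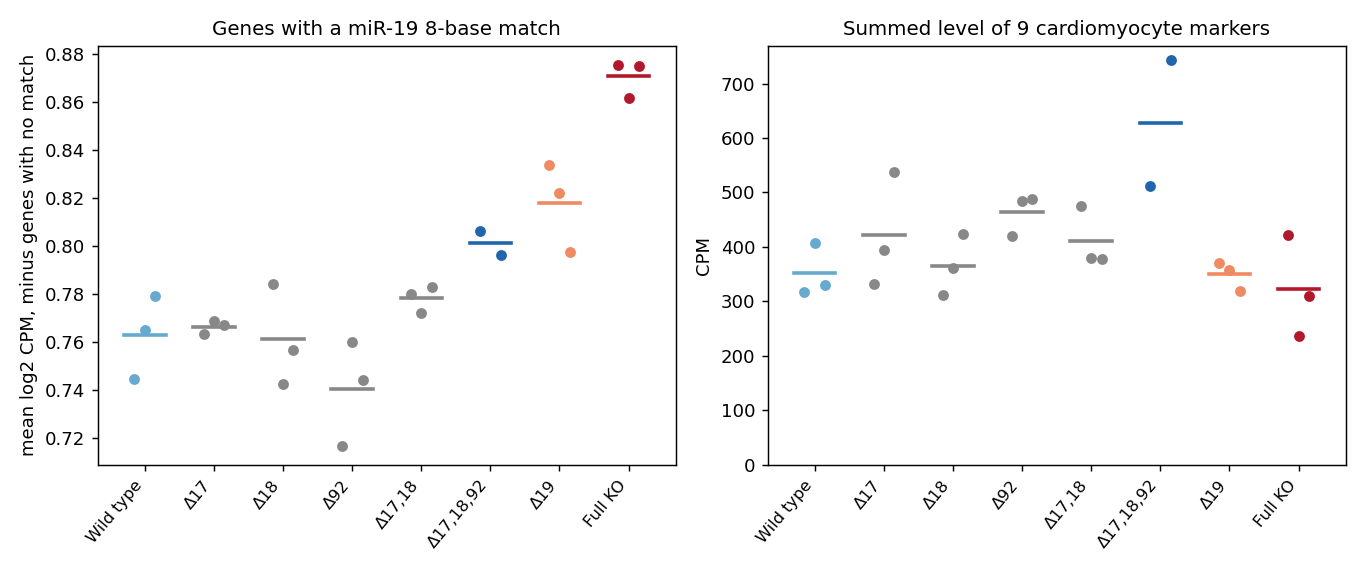
Left, mean log2 CPM of genes with an 8-base miR-19 match relative to genes holding none of the 4 families' matches (the axis does not start at 0); right, summed CPM of 9 cardiomyocyte markers (from 0), for each rest-of-embryo library of the 8 genotypes, with bars at group means. The full knockout is highest on the left, at 0.862 to 0.875, and the 2 Δ17,18,92 libraries include the highest on the right, at 744 CPM.

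The 12 genes named for an 8-base match kept their call whichever of the 5 libraries was left out, and with the cardiomyocyte level as a covariate. For Suz12 the value was then 0.68 (edgeR adjusted p = 7.68e-09) and for Rnf11 0.85 (5.87e-05). For Mylip the covariate gave 0.48 (adjusted p = 0.126). The 12 genes named for an 8-base match were chosen by smallest p in this same comparison, which favours keeping the call. Other genes were named by size, list or difference test, and many of their calls rested on single libraries. Without Δ17,18,92 replicate 2, Plxnc1 gave 0.50 (adjusted p = 0.282), Socs3 0.49 (0.139), Ccnd1 0.13 (0.489), Hes3 0.99 (0.150), Pax6 0.16 (0.550), Zbtb4 −0.51 (0.266) and Tnnt2 −0.80 (0.298). Without Δ17,18,92 replicate 1, Fam83g gave 0.56 (edgeR adjusted p = 0.111), Pax5 0.51 (0.278), Jun −0.32 (0.179) and Meox1 0.18 (0.323). The directions were kept in all of these.

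Of 8 collagen VI and small proteoglycan genes, a list drawn up after the values were seen, 5 fell (Col6a1, Col6a2, Col6a3, Dcn and Lum), against 0.805% of all tested genes. The other 3 did not pass, Bgn at −0.13, Fmod at −0.03 and Ogn at 0.04. Lum and Dcn, small proteoglycans that bind collagen, gave −1.02 ± 0.22 (edgeR adjusted p = 0.0302) and −0.86 ± 0.20 (0.0217), with Lum at 39.5, 44.8 and 24.9 CPM against 69.7 and 78.1 CPM. Both lost the call without Δ17,18,92 replicate 2 and with the covariate. Jun, an immediate early transcription factor, fell by 0.34 ± 0.08 (adjusted p = 0.0269), from 46.4 and 44.1 CPM to 34.8, 36.4 and 35.8 CPM.

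Of 10 genes of the border between midbrain and hindbrain, a list also drawn up after the values were seen, 3 rose, against 0.976% of all tested genes, and none of the 3 holds a miR-19 match. The 7 that did not pass ran from Otx2 (0.07), Fgf8 (0.13), Gbx2 (0.25) and Pax8 (0.38) to Wnt1 (0.51), En1 (0.52) and Pax2 (0.52). En2, a homeobox gene of that border, stood at 24.3, 20.6 and 19.8 CPM against 12.8 and 14.7 CPM (0.65 ± 0.10, edgeR adjusted p = 0.000241). Its wild-type level was 19.0 ± 2.57 CPM (SD, n = 3), and the means of the other genotypes apart from Δ17,18,92 ran from 19.0 to 27.9 CPM, so that Δ17,18,92 was the lowest group. Hes3, a repressor that keeps neural progenitors undifferentiated, gave 0.96 ± 0.20 (adjusted p = 0.0113) and Pax5 0.62 ± 0.16 (adjusted p = 0.0328). Mean Hes3 was 11.2 CPM in wild type, 11.0 in the full knockout and 5.69 in Δ17,18,92. For Pax5 these means were 7.31, 7.12 and 4.64 CPM, and Δ17,18,92 was again the lowest group for both genes. In Δ19 over wild type Hes3 and Pax5 gave −0.0093 and −0.0050. March2, a membrane ubiquitin ligase, has no match and rose by 0.61 ± 0.10 here and by 0.50 in Δ19.

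Markers of other cell types were also followed. All 10 primitive erythroid genes were above 0 with a median of 0.379, and none passed the test, at an unadjusted p under 0.05 or by DESeq2. Their summed level was 2669 to 3211 CPM in the full knockout and 2231 and 2307 CPM in Δ17,18,92. Of 10 neural genes tested, Pax6 rose (0.33 ± 0.08, edgeR adjusted p = 0.0422), and of 8 somite genes Meox1 did (0.22 ± 0.06, 0.038). The neural list had a median of −0.069, with 4 of the 10 above 0. The somite list had a median of 0.0449, with 5 of the 8 above 0. None of 9 endothelial, 7 neural crest, 15 tail bud and segmentation, 10 yolk sac or 33 Hox genes passed edgeR's test. At an unadjusted p under 0.05 there were 4, 1, 1, 0 and 4, and by DESeq2 the single call was Hoxb1. Their medians were −0.102, 0.0834, 0.302, 0.332 and 0.104 in that order. The part of these cell types in the other results was not tested.

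The same pair of genotypes was also profiled in tail bud and heart, in other libraries. In tail bud 47 genes rose (0.276%) and 11 fell (0.0647%) of 17009, and in heart 320 rose (1.91%) and 309 fell (1.84%) of 16750. Of the genes that rose in the rest of the embryo, 33 also rose in tail bud (19.3% of the former, 70.2% of the latter) and 38 in heart (22.2% and 11.9%). Of those that fell, 2 also fell in tail bud and 11 in heart. Each of the 12 named genes with an 8-base match had its lowest value in heart, and the test of the difference between tissues passed for 2 of the 12. The 12 were chosen by smallest p in the rest of the embryo, which favours higher values there than in the other tissues. Acadm rose by 0.78 in the rest of the embryo, 0.83 in tail bud and 0.17 in heart (edgeR adjusted p = 1.58e-05 for the difference), and Rnf11 by 0.86, 0.81 and 0.29 (adjusted p = 0.00112). For Suz12 the values were 0.67, 0.55 and 0.41 (adjusted p = 0.0805). Over all genes the difference between tissues passed in 19 of 18003 (0.106%).

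**Figure D5:**
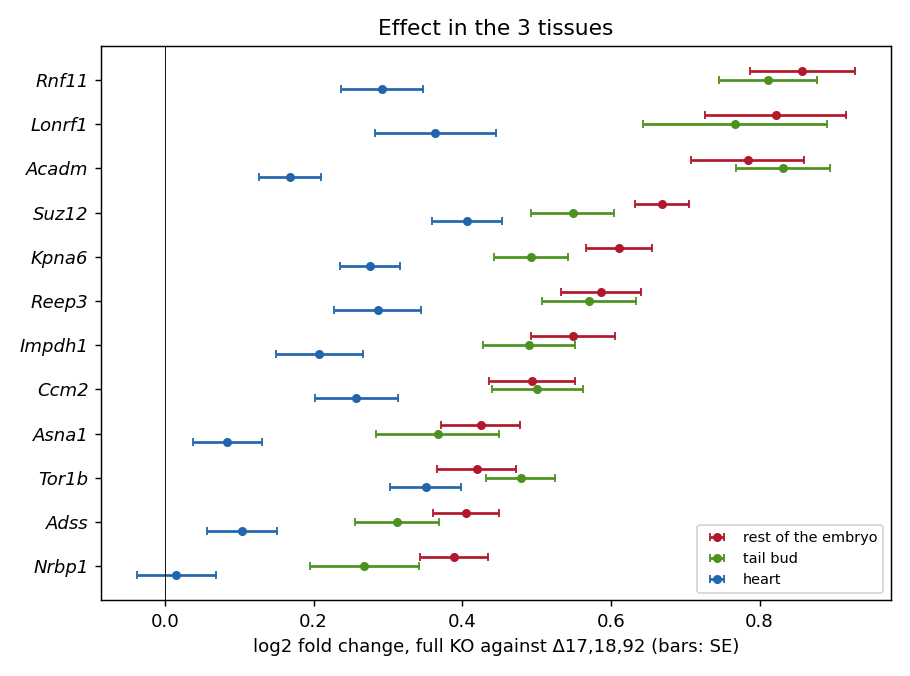
Log2 fold change (horizontal axis, bars are SE) of the full knockout against Δ17,18,92 in rest of the embryo, tail bud and heart for the 12 named genes with an 8-base miR-19 match. The genes were chosen by smallest p in the rest of the embryo, which favours higher values there. The heart value is the lowest of the 3 for every gene, and in Acadm and Rnf11 the tissues differ past the test.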

How the data were processed

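RNA from the rest of E9.5 embryos was sequenced as single reads of 50 bases. The authors deposited 1 table of whole-number read counts for 37620 Ensembl genes. Subread 1.4.2 (featureCounts), STAR 2.3.0, SAMtools 0.1.14 and the builds NCBIM37 and mm9 are named in the submitters' processing notes. Not given in the sources used here are the strand setting, annotation release and treatment of multi-mapping reads, so overlapping, antisense and near-identical genes are uncertain.

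Computed here: all 23 libraries of this tissue (16944224 to 25479249 counts) were fitted with edgeR 4.0.16 in R 4.3.3 (filterByExpr by genotype, TMM, robust quasi-likelihood test, Benjamini-Hochberg adjustment, threshold 0.05). The difference from Δ19 against wild type was a contrast in the same fit. Tissues were compared in a fit of the 17 libraries of both genotypes, with no pairing of libraries. CPM used TMM factors, and the log2 scores a prior count of 2. The share of genes higher in heart used wild-type means with a pseudocount of 1 CPM. The script was tested on simulated counts.

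Symbols came from GENCODE by gene ID (32897 of 37620 matched), and matches were searched in the longest 3′UTR per gene (19757 genes) on GRCm38, a later build than the files'. Genes were named by rule: Mir17hg and Bcl2l11 always; up to 12 per direction by size, with no overlap of groups and a mean log2 CPM not under 2; 12 with an 8-base match by smallest p; 5 per difference test; and up to 4 per list. Some genes that these rules or lists take in are not reported here. Members and lists were chosen with earlier results of these data known. Alternatives were DESeq2 1.42.0, other scaling and filters, a replicate block, fewer libraries, and, added after seeing the data, a cardiomyocyte covariate. That covariate was the mean log2 CPM of the 9 cardiomyocyte markers.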

Additional observations from a re-analysis of the deposited data

Results flagged for a closer look

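The effect of losing miR-19 on Mir17hg differed between the setting without the other families and the setting with them by −0.71 (edgeR adjusted p = 1.80e-05). Mir17hg also differed among genotypes that keep miR-19, from a mean of 158 CPM in wild type to 473 CPM in Δ17,18,92. In tests of the difference between tissues, Rnf11 (0.86 outside heart and tail bud, edgeR adjusted p = 0.00112) and Acadm (0.78, adjusted p = 1.58e-05) had smaller values in heart. Lpp, an adaptor of focal adhesions with an 8-base miR-19 match, gave −0.23 in the rest of the embryo and 0.49 in heart. The difference passed (edgeR adjusted p = 0.000491), while neither value passed in its own tissue (edgeR adjusted p = 0.159 and 0.0528). Cacna2d2, a calcium channel subunit, gave −0.62 against 0.25 in heart (adjusted p = 0.00141). For Cacna2d2 the cardiomyocyte markers moved with the first value, as given above, and their part was not tested.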

How the results depend on the processing

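The count of changed genes was 312 (171 higher, 141 lower). It became 673 (286 and 387) without a filter on low counts, and 205 and 110 (in all and higher) when only the 5 libraries were fitted. Leaving out 1 library gave 52 to 291 in all, 41 to 165 higher and 11 to 126 lower. The lowest in each came without Δ17,18,92 replicate 2, and Δ17,18,92 replicate 1, full knockout replicate 1 and full knockout replicate 2 gave 159, 194 and 138 in all. The cardiomyocyte covariate, added after seeing the data, gave 70, 49 and 21. The summed level of its markers did not overlap between the groups, so it can take up part of other differences between them. DESeq2 gave 405 in all. The 12 genes named for an 8-base match were chosen by smallest p in this comparison, which favours keeping a call. Of 43 named genes past the test, 17 kept it whichever library was left out, 18 without Δ17,18,92 replicate 2 and 17 with the covariate, among them the 12 named for an 8-base match.

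In Δ19 over wild type, 329 genes became 593 without a filter, 178 from the libraries compared alone, and 142 to 408 without 1 library. The 1 gene whose effect differed between settings became 59 by DESeq2, 197 without a filter, and 1 to 7 without 1 library. The 19 genes that differed between tissues became 10 to 24 without 1 library. The median of genes with an 8-base match, 0.0419, was 0.0138 when 7-base matches were added. Cyp26a1 (−0.26, not past the test) ranged from −0.50 to 0.0177 when 1 library was left out, the highest without Δ17,18,92 replicate 2, and turned to 0.0561 with the covariate, and Amn (1.01, not past the test) to −1.88 with the covariate. Between genotypes of this tissue, 10 of 77 same-numbered pairs of libraries correlated over 0.1. Pairs with different numbers were not compared, so whether a number marks a shared litter or batch was not tested. Whether a number marks the same embryo across tissues was not checked. With a replicate block 333 genes changed, 201 higher and 132 lower. The cause of these shifts was not tested. With 2 libraries in 1 group, small differences of genes at low levels were not detectable.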

Other observations

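Other groups of genes were looked up after the values were seen, so their choice is not independent of them. Over all tested genes 0.976% rose. Of 11 PRC2 genes, Suz12 alone passed (median 0.0489), with the partner genes Ezh2 at 0.03 ± 0.04 and Eed at 0.11 ± 0.05. Of 12 genes of purine synthesis, 4 rose (Impdh1, Adss, Gart at 0.19 ± 0.05 and Ampd2 at 0.19 ± 0.05), and 2 of the 4 hold an 8-base match, while Impdh2, the other enzyme of the Impdh1 step, gave 0.03 ± 0.08. In Δ19 over wild type Impdh1 and Adss rose, Gart gave −0.02 and Ampd2 0.06, neither past the test, and Gmps fell by 0.18 (edgeR adjusted p = 0.0124). In the MYC network Mycn, Mycl (0.38 ± 0.07) and Mnt (0.30 ± 0.08) rose of 11 genes, and Myc gave −0.09 ± 0.07. In Δ19 Mycn, Mycl and Mnt gave 0.32, 0.20 and 0.21, none past the test.

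Of 13 genes of the microRNA machinery, 3 rose: Dicer1, which cuts the hairpin (0.19 ± 0.05), Xpo5, which exports it (0.20 ± 0.05), and Tnrc6a, which recruits the decay machinery (0.16 ± 0.04). In Δ19 these gave 0.14, −0.02 and 0.10, none past the test, and Tnrc6c rose. Of 11 circadian clock genes tested, Clock, with 2 8-base matches, rose by 0.28 ± 0.06 here and 0.26 ± 0.05 in Δ19, and Nr1d2 by 0.52 ± 0.09 and 0.46 ± 0.08, while Per2 fell by 0.67 ± 0.14 here. In Δ19 Per2 gave −0.40, not past the test, and Cry1 fell by 0.28.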
